A study of Homo sapiens with 42 samples.

Results

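HCC2935 lung adenocarcinoma cells that had survived weeks of osimertinib were compared with and without the bromodomain inhibitor AZD5153. The 6 libraries, 3 drug tolerant persister (DTP) libraries and 3 sequential combination (combo) libraries, were taken by their labels from the 42 libraries of the series. HCC2935 is an established line with an activating EGFR mutation, and osimertinib is an inhibitor of the mutant EGFR kinase. For DTP, cells spent 24 days in osimertinib at 500 nM. Combo cells had received 500 nM osimertinib for 21 days and then 150 nM AZD5153 for 3 days. Control cells had grown drug-free for 21 days and then been given DMSO for 3 days. They gave reference levels, and their libraries also entered the fit that set the filter, scaling and spread. No label states if osimertinib stayed on while AZD5153 was given, and loss of osimertinib in those days and exposure to AZD5153 then cannot be told apart. The libraries were given as biological triplicates of 1 cell line.

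AZD5153 is an inhibitor of BET bromodomains, the modules with which BET family proteins read acetylated histones. BET proteins take part in bringing the elongation kinase P-TEFb to genes. Promoters, the sequences at transcription starts, are open in most cell types, whereas distal elements such as enhancers differ between cell types and are rich in acetylated histones. ATAC-seq measures open chromatin by inserting sequencing adapters with a transposase, so a high count marks an accessible region. Counts were read in regions of equal width and are given as CPM, counts scaled to a common library size with TMM factors. These levels are relative to the other regions of a library, so absolute accessibility cannot be read from them. A difference in a culture can come from fewer cells with an open region or from lower accessibility in each cell, and these cannot be told apart. A region was called promoter when the authors' annotation placed it within 3 kb of a start. It was called distal when it was annotated elsewhere and lay more than 3 kb from a start.

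AZD5153 was accompanied by lower accessibility at distal regions and by small, widespread gains at transcription starts, both relative to the other regions of a library. Of 154179 regions tested, 2933 were called higher and 9875 lower in combo than in DTP at an adjusted p under 0.05 (edgeR quasi-likelihood test, Benjamini-Hochberg), or 8.31% in all, 1.9% higher and 6.4% lower. Among 36138 distal regions 4778 were called lower (13.2%) and 777 higher (2.15%), with a median log2 fold change of -0.08 against 0.01 over all regions tested. Among 29125 promoter regions 1366 were called higher (4.69%) and 1479 lower (5.08%), with a median of 0.13. Leaving out 1 library gave 565 (without combo 2) to 2218 (without control 3) promoter regions called higher and 2676 (without DTP 2) to 4846 distal regions called lower. The same-numbered DTP and combo libraries deviated together weakly (correlations 0.151, 0.183 and 0.293, against up to 0.186 for differently numbered pairs with a control). A fit with only DTP and combo libraries and the replicate number as a block was chosen after seeing the data. It called 24887 regions, of which 4832 were promoter regions called higher and 2309 promoter regions called lower. The balance of gains and losses at promoters thus differed between the fits.

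The share called higher was greatest where the region held the start. Where the start was inside the region, 978 of 15231 regions were called higher and 296 lower, and the median log2 fold change was 0.18. Within 1 kb of a start that lay outside the region, 262 of 8018 regions were called higher and 439 lower. From 1 to 2 kb the counts were nearer those of distal regions, with 76 called higher and 386 lower of 3286 and a median of -0.04. Beyond this distance the shares changed little out to the annotation's limit of 99976 bases: 12.7% were called lower at 3 to 10 kb and 14.1% beyond 50 kb. Regions inside first introns, later introns and intergenic sequence had similar shares, with 13.9%, 13.6% and 13.3% called lower. The 88916 regions outside the annotated table, which have no class here, held 790 called higher and 3618 called lower.

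**Figure D1:**
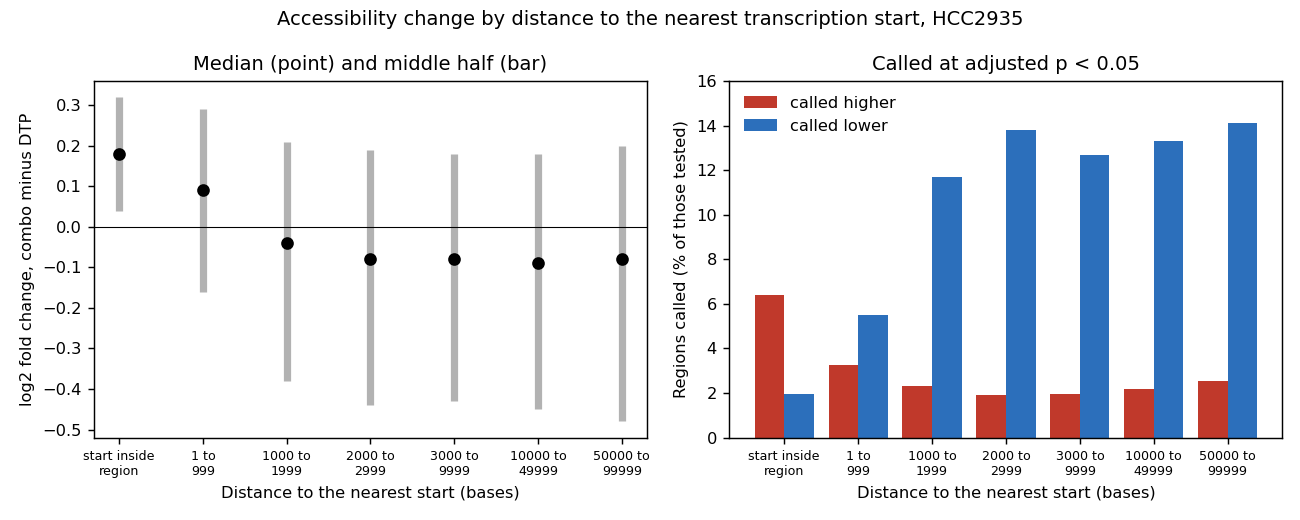
Change in accessibility, combo minus DTP, by distance from the region to the nearest annotated start in bases. Left, the median log2 fold change (point) and its lower and upper quartiles (bar). Right, the percentage of tested regions called higher (red) or lower (blue). The median falls from 0.18 at the start to -0.09 to -0.08 beyond 2 kb, and the share called lower rises from 1.94% to 14.1%.

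Losses were deeper than gains. The median called fall at distal regions was -1.04 on the log2 scale, and 2595 of the 4778 had fallen by more than 1. The median called rise at promoter regions was 0.62, and 108 of the 1366 exceeded 1. The called distal falls lay at less accessible regions, with a median log2 CPM of 2.85 against 3.7 for these rises. The contrast was seen at every level of accessibility. Split into 5 equal groups by mean log2 CPM, promoter regions had medians from 0.08 to 0.15 and distal regions from -0.24 to -0.01. The gap between called rises and falls was narrower within these groups. The median called promoter rise and distal fall were 0.96 and -1.27 in the lowest group and 0.45 and -0.65 in the highest. Of the annotated regions called higher 63.7% were promoter regions, against 23.6% of those called lower and 46.2% of those not called. The losses were not confined to single chromosomes: on chromosomes 1 to 22 and X between 11.1% (chromosome 10) and 15.5% (chromosome 2) of distal regions were called lower. In bins of 10 Mb the median change ran from -0.14 to 0.22 (SD 0.0576, 300 bins).

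The share of counts that fell in promoter regions, out of promoter and distal counts, gave 1 value a library. This share rises when promoter counts rise and also when distal counts fall. In DTP libraries 1 to 3 it was 52.4%, 53.6% and 54.5%, and in combo libraries 1 to 3 it was 56.5%, 55.8% and 58.5%. Every combo library lay above every DTP library. The means were 57.0% ± 1.38 and 53.5% ± 1.08 (SD, n = 3), a difference of 3.47 percentage points (exact two-sided permutation p 0.1, the smallest that 3 against 3 allows). Control libraries had 51.3%, 52.8% and 50.8%. In PC9 the share was 63.4% ± 0.21 in combo and 62.1% ± 0.608 in DTP (SD, n = 3; exact permutation p 0.1), and in H1975 57.8% ± 0.123 and 56.7% ± 0.544 (SD, n = 3; exact permutation p 0.1). The HCC2935 difference exceeded that of PC9 by 2.1 points and that of H1975 by 2.39 points. Exact permutation within lines gave p 0.3 and 0.225 (adjusted p 0.3 for both). Labels were permuted within each line, where the observed difference was already the largest possible. This test could therefore not pass the threshold, and it does not decide whether the lines differ. In HCC827 the combo libraries spread from 56.8% to 65.2% and overlapped the DTP libraries (exact permutation p 0.5).

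**Figure D2:**
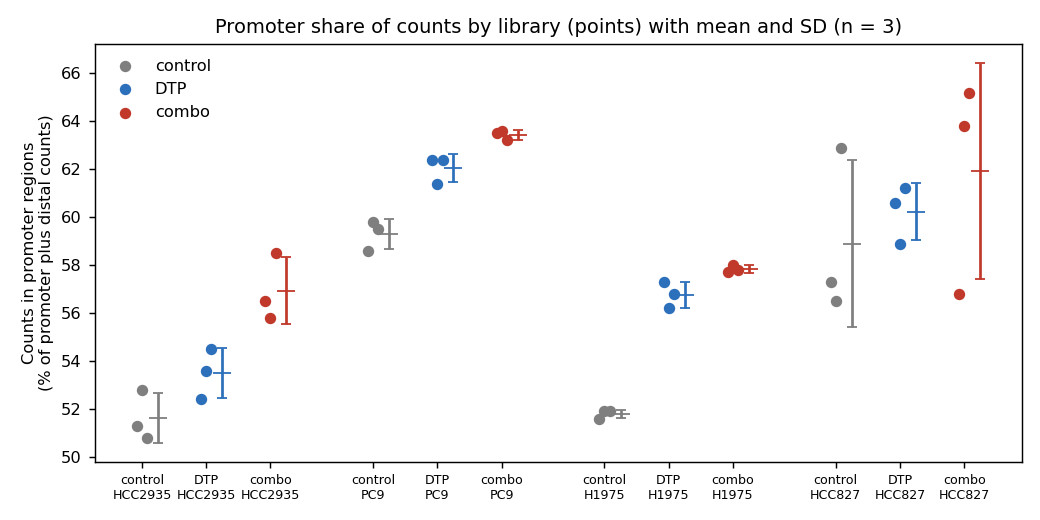
Share of counts in promoter regions, as a percentage of promoter plus distal counts, in each library (points) with the mean and SD (n = 3) beside them, for control, DTP and combo in HCC2935, PC9, H1975 and HCC827. HCC2935 combo libraries lie at 55.8% to 58.5%, above DTP libraries at 52.4% to 54.5%; the axis does not start at 0.

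Peaks called by the authors for each library were compared as well. A peak overlapped 89.2%, 91.9% and 88.2% of distal regions in DTP libraries 1 to 3, and 83.2%, 89.1% and 78.3% in combo libraries 1 to 3. The means were 89.8% ± 1.91 and 83.5% ± 5.41 (SD, n = 3; exact permutation p 0.2). Combo library 2, the deepest of the 6, lay within the DTP range. In each same-numbered pair the combo library was the lower, and the test did not use the pairing. Promoter regions had a peak in 92.5% ± 1.37 and 92.1% ± 2.3 (SD, n = 3; exact permutation p 1.0). Promoter regions made up 47.1% ± 0.996 of regions with a peak in combo and 45.4% ± 0.24 in DTP (SD, n = 3; exact permutation p 0.1). The difference was 1.7 percentage points, and 5.05 when a peak had to cover 50% of the region (exact permutation p 0.1).

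The largest promoter rise under the naming rule was at ATP1B1, the beta subunit of the sodium-potassium pump (chr1:169107575-169108076, hg38). Its accessibility was 1.14, 1.16 and 2.48 CPM in DTP libraries and 5.76, 6.77 and 7.45 CPM in combo libraries. The 2 groups were far apart, and control libraries at 1.09 to 1.88 CPM were like DTP. The log2 fold change was 2.06 ± 0.313 (SE; adjusted p 1.12e-05, edgeR). LBH, a regulator of WNT signalling, had 6.08, 5.79 and 4.2 CPM in DTP and 14.5, 17.4 and 13.5 CPM in combo (log2 fold change 1.5 ± 0.208, adjusted p 2.2e-06, edgeR). DKK1, a secreted WNT inhibitor, had 1.14, 2.65 and 2.48 CPM in DTP and 6.51, 5.77 and 3.82 CPM in combo (1.35 ± 0.308, adjusted p 0.00286, edgeR). DKK1 was the only 1 of these 3 with control levels, 2.95 to 3.44 CPM, above all its DTP libraries. MAOA, a mitochondrial amine oxidase, went from 2.85, 2.98 and 2.48 CPM to 5.95, 8.79 and 6.04 CPM (1.33 ± 0.282, adjusted p 0.00123, edgeR). LRRC49 (log2 fold change 1.57) and COL21A1, a collagen chain (1.47), completed the 6 largest rises, and in these too no combo library overlapped a DTP library, as the naming rule required. Such separation, in either direction, was seen at 26.4% of all regions. The 6 regions were of low accessibility, with DTP means of 1.59 CPM (ATP1B1) to 5.36 CPM (LBH). The mean log2 CPM at ATP1B1 was 1.94, against a median of 3.7 over promoter regions called higher. Each was the region of its symbol with the largest rise under the rule, which need not be its most accessible promoter region.

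The named promoter falls were steeper than the named rises. The largest was at WTAPP1, a pseudogene in the matrix metalloproteinase gene cluster, at chr11:102783735-102784236. It had 4.18, 3.8 and 4.2 CPM in DTP and 0.372, 0.721 and 0.403 CPM in combo, so that combo was 7.49-fold lower (log2 fold change -2.9 ± 0.417, adjusted p 4.07e-06, edgeR). Control libraries had been higher still, at 9.74 to 15.1 CPM. A region at the start of AQR, which encodes a spliceosomal helicase, had 7.03, 7.61 and 8.97 CPM in DTP and 1.86, 1.73 and 2.01 CPM in combo (-2.07 ± 0.28, adjusted p 1.37e-06, edgeR). Here control libraries, at 0.939 to 1.48 CPM, were the lowest of the 3 groups. A region 746 bases from an annotated start of PKM, the pyruvate kinase of glycolysis, had 7.41, 6.12 and 5.15 CPM in DTP and 1.86, 1.01 and 1.61 CPM in combo (-2.08 ± 0.316, adjusted p 1.14e-05, edgeR). KANSL3, of the NSL acetyltransferase complex (-2.16), GAS2, a cytoskeletal protein (-2.1), and ACMSD, an enzyme of tryptophan breakdown (-2.08), were the other 3. These regions were of low accessibility, and no named promoter fall exceeded 8.97 CPM in a DTP library.

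The deepest named distal fall was in an intron assigned to STEEP1, a factor in STING trafficking, at chrX:119552461-119552962. It had 12, 9.1 and 10.7 CPM in DTP and 2.04, 0.865 and 0.403 CPM in combo, 9.4-fold lower (log2 fold change -3.23 ± 0.342, adjusted p 8.9e-09, edgeR). Control libraries had 0.295 to 2.82 CPM, so combo lay at the control level and DTP alone was high. An intronic region of COBLL1 had 4.56, 5.46 and 5.53 CPM in DTP and 0.744, 0.577 and 0.403 CPM in combo (-3.11 ± 0.385, adjusted p 2.46e-07, edgeR). An intronic region of BTRC, the substrate receptor of a ubiquitin ligase for beta-catenin, had 3.23, 3.47 and 4.39 CPM and then 0.372, 0.577 and 0.403 CPM (-2.93 ± 0.432, adjusted p 6.66e-06, edgeR). In these 2 regions control libraries were above DTP, at 10.0 to 14.4 CPM and 9.7 to 13.9 CPM, so combo was the lowest of the 3 groups. An intergenic region nearest ZNF543, a zinc finger gene, stood at 8.36, 8.6 and 7.06 CPM in DTP and 0.929, 1.15 and 1.01 CPM in combo (-2.92 ± 0.311, adjusted p 1.1e-08, edgeR). The first intron of B4GALNT3, a glycosyltransferase gene, had 12.2, 9.92 and 10.3 CPM in DTP and 1.3, 0.865 and 2.62 CPM in combo (-2.81 ± 0.278, adjusted p 1.91e-09, edgeR). Combo levels at these distal regions, 0.372 to 2.62 CPM, were near the floor, so few counts underlie the size of each fall.

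Distal gains were fewer. The largest named gain was in an intron of the kinase gene MAST4 (chr5:66967729-66968230). It had 0.76, 0.992 and 1.15 CPM in DTP and 7.99, 9.08 and 5.44 CPM in combo. Combo was 7.7-fold higher (log2 fold change 2.94 ± 0.336, adjusted p 4.21e-08, edgeR). An intron of SGPP2, a sphingosine-1-phosphate phosphatase, followed with 0.95, 2.32 and 0.954 CPM against 6.88, 8.5 and 10.7 CPM (2.56 ± 0.313, adjusted p 1.89e-07, edgeR). TNS3, a focal adhesion protein, had an intronic region at 2.47, 1.98 and 2.86 CPM in DTP and 10.0, 10.2 and 10.5 CPM in combo (2.07 ± 0.261, adjusted p 3.38e-07, edgeR). In all 3 the control libraries were at or below 1.97 CPM. KCNMB2, a potassium channel subunit, was the other (1.73).

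**Figure D3:**
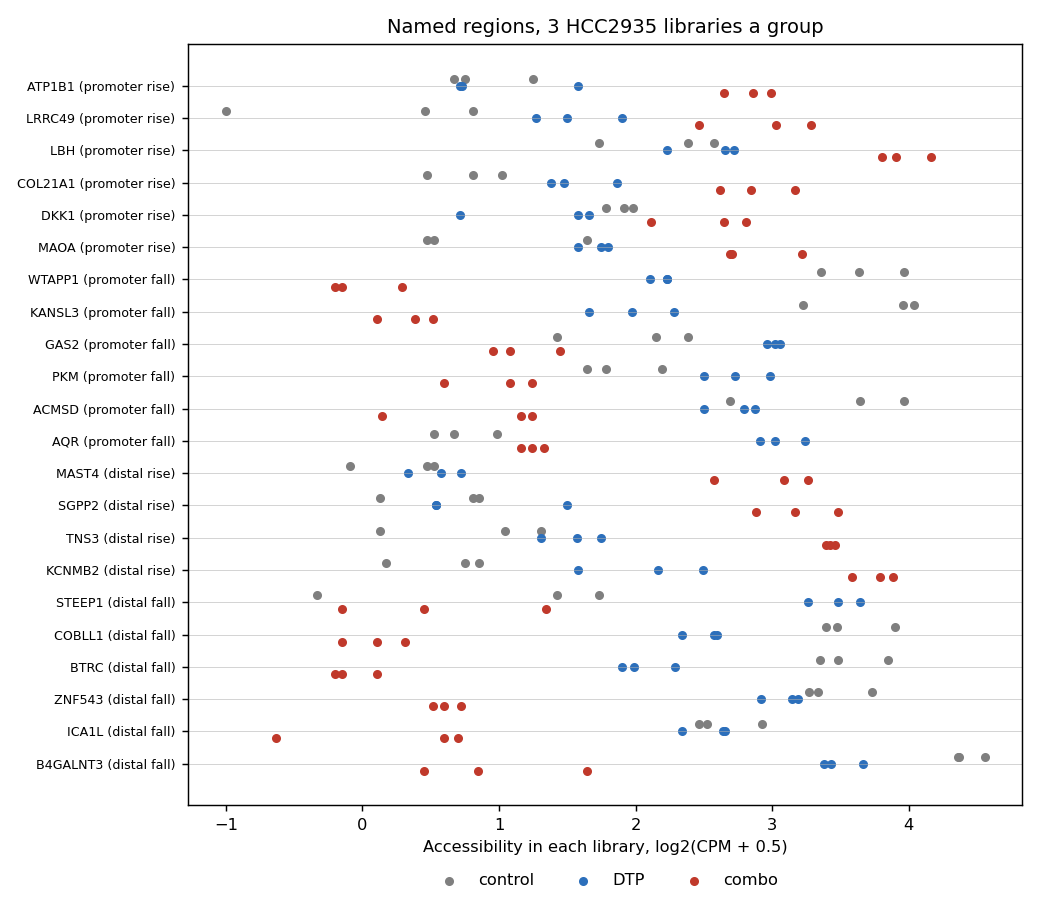
Accessibility of the 22 named regions in each HCC2935 library, as log2(CPM + 0.5), for control (grey), DTP (blue) and combo (red), 3 points a group. Regions were named for a combo group that lies wholly above or below DTP; control points sit with DTP at ATP1B1, with combo at STEEP1, below both at AQR, and above both at WTAPP1 and BTRC.

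Genes differed in how many distal losses they held, a number that grows with the number of distal regions tested. Of 9455 symbols with a distal region, 2818 had at least 1 called lower and 251 had 3 or more. DIRC3, a long non-coding RNA gene, GTF2IRD1, a transcription factor gene, and MPEG1, a pore-forming protein of phagocytes, each had 8 that met the naming rule, of 21, 23 and 10 regions. GMDS, an enzyme of fucose synthesis, MYO10, a myosin of filopodia, and TLE4, a Groucho corepressor, followed with 7 each, of 33, 18 and 10, a tie that was kept. Over all distal regions 13.2% were called lower, and no test of clustering was made. At MPEG1 8 of 10 distal regions fell, over 65.8 kb and with a median of -1.13 over the 10. The deepest of these had 46.1, 47.5 and 41.0 CPM in control, 7.79, 7.77 and 11.4 CPM in DTP and 1.3, 2.31 and 1.81 CPM in combo. This was a stepwise order, with no overlap between the groups, and combo differed from DTP by -2.26 ± 0.261 (log2, adjusted p 5.09e-08, edgeR). At TLE4 7 of 10 fell, the deepest from 2.85, 2.65 and 3.24 CPM to 0.929, 0.288 and 0.201 CPM (-2.58 ± 0.468, adjusted p 0.000179, edgeR), with control at 16 to 23 CPM. Few counts underlie the combo values at that TLE4 region. GTF2IRD1 was mixed, with 8 of 23 lower and 3 higher. A region is assigned to its nearest start, which need not be the gene it acts on.

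A promoter rise and distal falls met in single genes. Of 7414 genes with a tested region within 1 kb of a start and a distal region, 765 had a promoter called higher, and 284 of these (37.1%) also had a distal region called lower. The share was 42.1% of the 432 genes with a promoter called lower and 30.9% of the 6250 with neither. The median number of distal regions was 3, 3 and 2 in these groups, and its part in the shares was not tested. Under the naming rule 31 genes had a promoter rise with at least 3 distal falls, and the widest gaps were at ICA1L, TRIM14, EHD3, BRAF and GAPVD1.

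BRAF encodes a kinase that relays RAS signals to ERK. Its promoter region, 191 bases from a start, had 10.1, 10.9 and 10.5 CPM in DTP and 18.4, 19.5 and 19.1 CPM in combo (log2 fold change 0.85 ± 0.166, adjusted p 0.000437, edgeR). Of 5 distal regions in the first intron 3 were called lower. The region at chr7:140913071-140913572 had 17.1, 16.4 and 17 CPM in DTP and 10.8, 9.23 and 9.66 CPM in combo (-0.77 ± 0.156, adjusted p 0.000754, edgeR), after 43.2 to 55.8 CPM in control. The other intronic regions called lower changed by -1.1 and -0.83. The remaining regions of the first intron were not called and went both ways, by -0.98 and 0.78, and a region in intron 13 changed by 0.21. With DTP and combo only and the replicate block the first of these was called (-0.95, adjusted p 0.0215, edgeR). EHD3, of endocytic recycling, had a promoter change of 0.41 ± 0.122 (adjusted p 0.0262, edgeR) and 4 of 5 distal regions called lower, the deepest from 5.32, 10.8 and 8.4 CPM to 1.3, 2.02 and 1.21 CPM (-2.38 ± 0.301, adjusted p 3.33e-07, edgeR). ICA1L rose at its promoter by 0.55 and fell at 3 of 4 distal regions, with log2 fold changes of -1.35 to -2.9. TRIM14, an adaptor of antiviral signalling, rose by 0.76 at the promoter and fell at 3 distal regions within 4.57 kb.

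**Figure D4:**
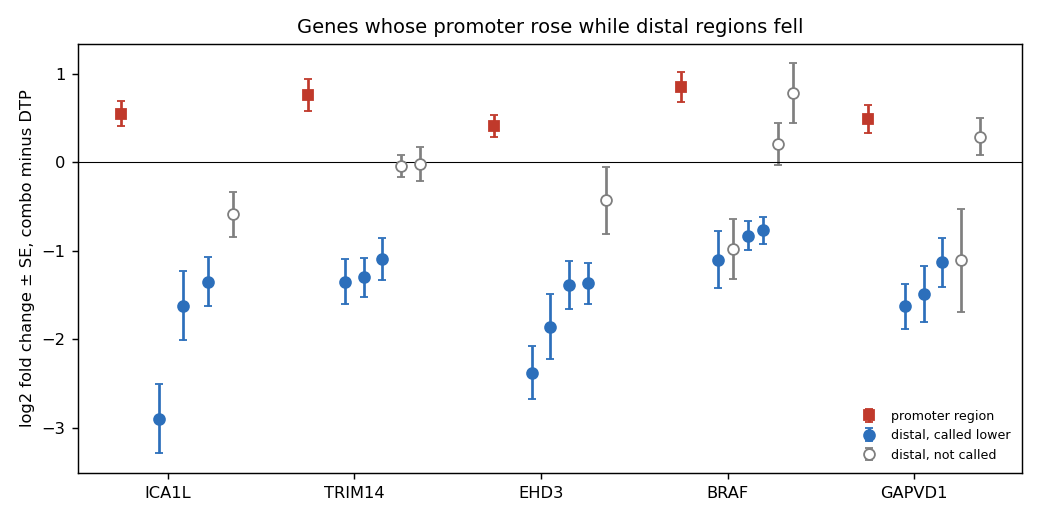
Log2 fold change ± SE, combo minus DTP, of the promoter region (red squares) and of each distal region (circles, filled blue where called lower, open grey where not called) of the 5 genes named for the widest gap. Promoters lie between 0.41 and 0.85 and called distal regions between -0.77 and -2.9.

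Upstream sequence of promoters was read from the RefSeq table of GRCh38.p14. Of 13727 genes with a region within 1 kb, 10855 matched by gene ID and 7339 had a window that overlapped their region. The 250 bases before the start are shown for 7 promoters that the results turn on, with letters of the searched motifs in capitals. MAOA, CXCL3, BRAF, EGFR and CCNT1 were called higher, TEAD3 was called lower and HEXIM1 was not called. The positions are chrX:43656049-43656298 (+ strand) for MAOA, chr4:74038690-74038939 (- strand) for CXCL3, chr7:140924269-140924518 (- strand) for BRAF, chr7:55018767-55019016 (+ strand) for EGFR, chr12:48716708-48716957 (- strand) for CCNT1, chr6:35497080-35497329 (- strand) for TEAD3 and chr17:45148225-45148474 (+ strand) for HEXIM1.
MAOA: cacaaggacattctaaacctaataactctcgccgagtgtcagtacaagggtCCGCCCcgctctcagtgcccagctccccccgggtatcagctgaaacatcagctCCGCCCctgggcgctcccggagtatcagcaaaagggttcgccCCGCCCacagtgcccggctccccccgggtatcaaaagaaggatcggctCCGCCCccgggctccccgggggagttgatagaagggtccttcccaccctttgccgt
CXCL3: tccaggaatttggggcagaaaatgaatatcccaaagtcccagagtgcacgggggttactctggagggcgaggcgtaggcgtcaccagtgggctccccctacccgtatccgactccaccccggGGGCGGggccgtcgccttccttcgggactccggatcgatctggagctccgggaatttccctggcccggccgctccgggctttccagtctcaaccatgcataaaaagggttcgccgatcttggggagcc
BRAF: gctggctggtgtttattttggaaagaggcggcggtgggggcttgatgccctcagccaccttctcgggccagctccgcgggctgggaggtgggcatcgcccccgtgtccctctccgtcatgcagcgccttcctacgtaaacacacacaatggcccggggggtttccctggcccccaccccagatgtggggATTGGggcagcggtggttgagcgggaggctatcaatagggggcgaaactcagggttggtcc
EGFR: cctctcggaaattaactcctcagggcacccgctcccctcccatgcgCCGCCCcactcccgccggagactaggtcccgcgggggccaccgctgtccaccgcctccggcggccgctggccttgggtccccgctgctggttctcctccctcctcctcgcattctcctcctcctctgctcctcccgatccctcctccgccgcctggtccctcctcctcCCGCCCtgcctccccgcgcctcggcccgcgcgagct
CCNT1: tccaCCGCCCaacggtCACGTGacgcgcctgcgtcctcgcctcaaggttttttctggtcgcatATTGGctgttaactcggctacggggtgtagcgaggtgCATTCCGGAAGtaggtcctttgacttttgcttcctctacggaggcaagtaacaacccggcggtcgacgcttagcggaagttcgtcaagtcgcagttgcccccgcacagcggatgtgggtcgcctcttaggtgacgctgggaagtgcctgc
TEAD3: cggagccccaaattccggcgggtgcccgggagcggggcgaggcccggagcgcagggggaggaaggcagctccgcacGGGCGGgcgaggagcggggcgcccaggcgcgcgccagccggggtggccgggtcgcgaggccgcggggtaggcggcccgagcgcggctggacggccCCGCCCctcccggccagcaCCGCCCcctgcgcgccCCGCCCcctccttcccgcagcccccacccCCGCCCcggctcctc
HEXIM1: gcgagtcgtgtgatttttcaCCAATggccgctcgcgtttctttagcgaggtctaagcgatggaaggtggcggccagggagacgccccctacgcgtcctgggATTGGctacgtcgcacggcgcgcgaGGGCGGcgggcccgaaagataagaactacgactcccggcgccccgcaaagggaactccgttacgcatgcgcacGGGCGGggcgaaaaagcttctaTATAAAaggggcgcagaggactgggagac

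Motifs were searched on both strands and may overlap. They were the GC box GGGCGG, the CCAAT box, the box of TATA type written TATAAA, the E-box CACGTG, the ETS core CCGGAAG, the AP-1 site TGANTCA, the cAMP response element TGACGTCA, the TEAD motif GGAATG, and for E2F the words TTTCGCGC or TTTGGCGC. Of the 7 windows BRAF holds only a CCAAT match, MAOA holds 4 GC boxes and TEAD3 5. Shares are given for promoters called higher, called lower and not called, in that order and with no test. The GC box was in 70.8% of 545 promoters called higher, 49.1% of 55 called lower and 72% of 6739 not called, against 42.3% of all 27305 promoters in the table. Median GC content was 65.6%, 56.8% and 66% in these groups. CCGGAAG was in 20.7%, 5.45% and 16.3% (8.82% of all promoters). TATAAA was in 3.3%, 10.9% and 4.73% (11.1% of all) and TGANTCA in 3.12%, 10.9% and 4.24% (6.6% of all). CCAAT was in 35.2%, 41.8% and 38.1% (33% of all), CACGTG in 6.24%, 9.09% and 9.36% (6.49%), and GGAATG in 10.3%, 12.7% and 8.87% (11.9%). TGACGTCA was in 2.39%, 0% and 3.31% (1.77%), and each E2F motif in 0.55%, 0% and at most 0.92%. In 3 groups of rising GC content the share called higher was 6.8%, 8.43% and 7%, and the median log2 fold change 0.19, 0.19 and 0.21. With 55 promoters the shares of the lower group are coarse, and a match is no proof of binding.

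Genes of the BET and P-TEFb machinery changed little at their promoters. Over all 13727 genes 6.11% of promoter regions were called higher and 2.27% lower. Of 15 promoters in this list 2 were called higher and none lower, with a median of 0.16. CCNT1, the cyclin of P-TEFb, had 23.9, 25.1 and 28.6 CPM in DTP and 33.1, 31.7 and 37.2 CPM in combo (log2 fold change 0.39 ± 0.123, adjusted p 0.0393, edgeR). The other was AFF4, a scaffold of the super elongation complex (0.37). HEXIM1, the P-TEFb inhibitor whose transcript is a common marker of BET inhibition, had 42.2, 48.6 and 46.2 CPM and then 37.9, 49.2 and 58.8 CPM (0.09 ± 0.114, adjusted p 0.715, edgeR). These groups overlapped. BRD3, a BET family member, had a promoter change of 0.16 ± 0.126 (adjusted p 0.508, edgeR). Distal regions near ELL (-1.72), LARP7 (-1.17), AFF1 (-0.9) and AFF4 (-1.54 and -1.41) were called lower, 5 of 22 for the list.

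Genes of EGFR signalling and its feedback were read next. Of 22 promoters 4 were called higher and none lower (median 0.08), beside 6.11% and 2.27% over all genes. The median over all regions within 1 kb of a start, a set not limited to 1 region a gene, was 0.16. Of 146 distal regions 25 were called lower and 3 higher (median -0.2), beside 13.2% and 2.15% of all distal regions. EGFR itself had 16.5, 17.5 and 16.8 CPM at its promoter in DTP and 22.7, 25.8 and 22.5 CPM in combo (log2 fold change 0.49 ± 0.139, adjusted p 0.0202, edgeR). Control libraries, at 13.8 to 17.7 CPM, were at the DTP level. EPHA4, an ephrin receptor (0.48), AREG, an EGFR ligand (0.54), and SPRY2, a feedback inhibitor of receptor signalling (0.46), were the other promoters called higher. Of 18 distal regions assigned to EGFR 3 were called lower and 2 higher. One that fell, at chr7:54946250-54946751, had 20.5, 16.7 and 18.1 CPM in DTP and 8.92, 6.77 and 12.1 CPM in combo (-1.02 ± 0.193, adjusted p 0.000323, edgeR), with control at 2.4 to 5.63 CPM. One that rose, at chr7:54933181-54933682, had 13.7, 13.9 and 13.9 CPM and then 24.5, 27.2 and 23.6 CPM (0.86 ± 0.141, adjusted p 3.63e-05, edgeR). Distal falls also stood near TGFA, an EGFR ligand (-1.18), and near the feedback inhibitors SPRY1 (-1.84) and SPRED1 (-0.74), while another region assigned to SPRY1 was called higher (0.83). CCND1, cyclin D1, had a promoter change of -0.43 ± 0.142 that missed the threshold without the pairing (adjusted p 0.0512) and passed it with DTP and combo only and the replicate block (-0.41, adjusted p 0.00751, both edgeR).

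The BCL2 family, which sets the threshold for apoptosis, had calls in both directions. Of 15 promoters 1 was called higher and 1 lower (median 0.13), beside 6.11% and 2.27% over all genes. Of 44 distal regions 10 were called lower and 5 higher (median -0.11), beside 13.2% and 2.15% of all distal regions. BMF, a pro-apoptotic member, had 33.6, 37.9 and 38.2 CPM at its promoter in DTP and 45.5, 52.0 and 46.3 CPM in combo (log2 fold change 0.39 ± 0.107, adjusted p 0.0137, edgeR). BMF also held 4 of the 5 distal regions called higher, with changes of 0.5, 0.77, 0.82 and 0.84, and had no distal region called lower. BCL2L1, which encodes the survival protein BCL-XL, had 48.3, 51.6 and 49.2 CPM and then 34.0, 44.0 and 39.7 CPM (-0.34 ± 0.106, adjusted p 0.0374, edgeR). Within its intron a region fell from 14.6, 13.1 and 14.9 CPM to 4.65, 6.2 and 5.84 CPM (-1.34 ± 0.197, adjusted p 7e-06, edgeR). Another intronic region nearby rose from 6.46, 5.46 and 5.34 CPM to 9.48, 15.4 and 10.3 CPM (1.05 ± 0.213, adjusted p 0.000748, edgeR). The deepest fall of the list was in an intron of BCL2, an anti-apoptotic member, from 7.98, 8.27 and 6.87 CPM to 1.67, 1.59 and 1.41 CPM (-2.29 ± 0.288, adjusted p 3.31e-07, edgeR). Intronic regions of BCL2L11, which encodes the pro-apoptotic BIM, were called lower as well (-2.03 and -1.36).

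The other lists held few promoter calls, to be read beside 6.11% called higher and 2.27% called lower over all genes. Their distal calls are read against 13.2% lower and 2.15% higher over all distal regions. In the AP-1 family, the early response transcription factors, none of 15 promoters was called in either direction, while 6 of 42 distal regions were called lower and 1 higher. A region assigned to FOS had 35.5, 40.7 and 45.6 CPM in DTP and 19.0, 13.1 and 20.5 CPM in combo (log2 fold change -1.23 ± 0.14, adjusted p 4.21e-08, edgeR), against 18.8 to 25.4 CPM in control. Among lung epithelial lineage genes 2 of 17 promoters were called higher (LPCAT1 0.66, KLF5 0.38) and none lower, and 14 of 86 distal regions were lower and 2 higher. These falls lay near the epithelial transcription factors GRHL1, EHF and ELF3, among others, with changes such as -1.04 at GRHL1, -0.97 at EHF and -0.84 at ELF3. In the YAP and TEAD list TEAD3 (-0.52) and TEAD4 (-0.49), the DNA-binding factors, were called lower at the promoter and VGLL3, a cofactor, higher (0.63), of 19, and 8 of 92 distal regions were called lower and 2 higher. TEAD3 had 18.6, 19.5 and 19.7 CPM in DTP and 12.6, 11.5 and 16.7 CPM in combo. Among inflammatory cytokine genes the promoters of CXCL3 (1.18) and CXCL2 (0.59), both neutrophil chemokines, were called higher of 16, while 7 of 52 distal regions were lower, among them regions near IL1B (-1.88), CCL2 (-2.09) and IL1A (-1.08).

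The cell cycle list had 1 promoter called higher of 20. This was CDK6, a G1 kinase, with 14.6, 16.5 and 15.8 CPM in DTP and 24.2, 23.8 and 27.8 CPM in combo (log2 fold change 0.68 ± 0.143, adjusted p 0.00119, edgeR). At 4 of its list's 47 distal regions accessibility was called lower. In the MYC network 1 of 14 promoters was called lower, that of the non-coding PVT1 (-0.76). MYC had 5.13, 4.96 and 5.53 CPM at its promoter in DTP and 8.37, 7.35 and 7.65 CPM in combo, groups that did not overlap but did not pass the test (0.58 ± 0.227, adjusted p 0.111, edgeR). With DTP and combo only and the replicate block the change in MYC was called (0.59, adjusted p 0.0265, edgeR). In the mesenchymal list FN1, fibronectin, was the single promoter called higher of 21 (0.51), and 9 of 84 distal regions were lower. Of stress and drug export genes, GCLM, of glutathione synthesis (0.64), and ALDH1A3, an aldehyde dehydrogenase (0.42), rose of 16 promoters, and 4 of 55 distal regions fell. No promoter was called among 18 replication-dependent histone genes (median 0) or 12 interferon and antigen presentation genes (median 0.1).

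Markers of the labelled cell type were open, as were the endothelial and fibroblast markers that had a promoter region. All 7 epithelial markers had a promoter region, and their summed accessibility was 206 to 235 CPM in DTP and 226 to 260 CPM in combo, with EPCAM, a surface adhesion protein, called higher (0.38). Of 3 lung alveolar markers 2 had one, at 26.3 to 34.9 CPM and 30.9 to 37.8 CPM in sum. None of 5 leukocyte markers had a promoter region in the annotated table. Of 3 endothelial markers only CDH5 did, which was called lower (-0.52), at 22.6 to 24.2 CPM and 14.5 to 17.5 CPM. Of 3 fibroblast markers 1 had a region, at 27.7 to 30.5 CPM and 27.1 to 30.4 CPM. The sums hold unlike numbers of markers. Single epithelial markers had DTP means of 20.5 to 62 CPM and the alveolar ones 9.81 and 19.4 CPM. CDH5 (23.3 CPM) and the fibroblast marker (29.1 CPM) lay within the epithelial range.

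The HCC2935 calls were then read in PC9 and H1975, EGFR mutant lines given the same drugs, whose libraries are independent of the HCC2935 libraries. Regions of the 3 lines were matched where each covered at least 50% of the other, and 100342 were tested in 1 fit. Of 2635 matched distal regions called lower in HCC2935, 31.6% were called lower in PC9 and 32% in H1975, against 14.2% and 11.3% of all matched distal regions. Higher calls were made at 8.76% of all matched distal regions in PC9 and at 14.7% in H1975, where they outnumbered the lower calls. The median change over all matched distal regions was -0.07 in PC9, 0.01 in H1975 and -0.03 in HCC2935. Over all matched regions 9.37% were called lower in PC9 and 10.2% in H1975, and 8.17% and 11.9% higher. In both other lines together 349 of the 2635 (13.2%) were called lower, against 3.27% of all matched distal regions. The opposite call was made at 4.29% of the 2635 in PC9 and 3.87% in H1975. Of 1151 matched promoter regions called higher, 31.5% were called higher in PC9 and 51.4% in H1975, against 16.2% and 22.3% of all matched promoter regions. For these it was made at 1.04% in PC9 and 0.348% in H1975. Matching used the deposited regions of each line, and 4778 distal falls had been called in HCC2935 in all. The biological coefficient of variation over DTP and combo libraries was 0.988% in PC9 and 1.72% in H1975, against 8.54% in HCC2935.

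**Figure D5:**
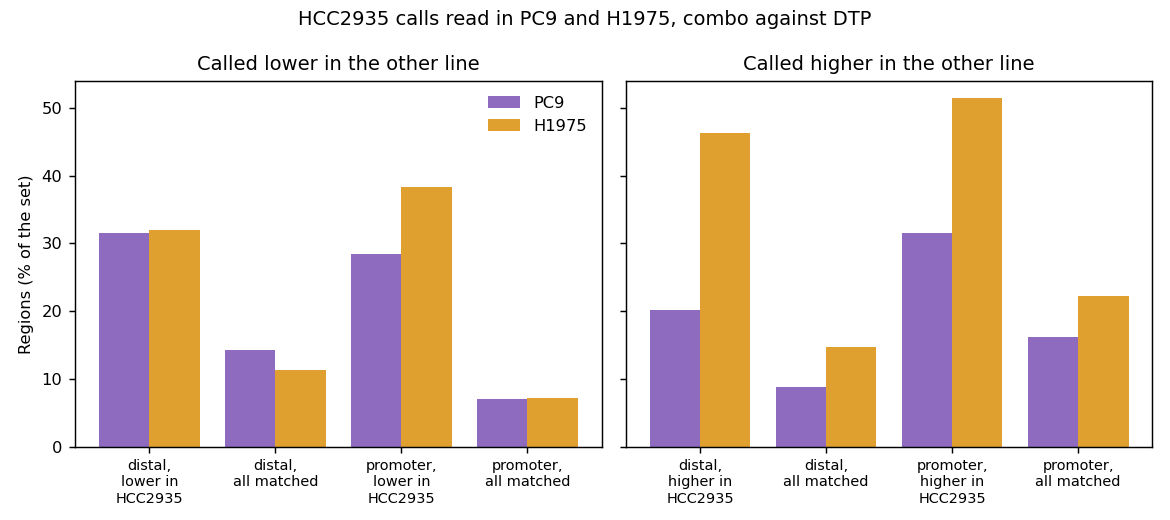
Percentage of regions called lower (left) or higher (right) in combo against DTP in PC9 and H1975, for regions called in HCC2935 and for all matched regions of the same class. The HCC2935 sets lie above all matched regions in each pair of bars, for example 31.6% against 14.2% for distal falls in PC9.

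Differences between the lines were tested as well. The change in HCC2935 differed from that in PC9 at 6776 regions (6.75%) and from that in H1975 at 4925 regions (4.91%; edgeR interaction, adjusted p under 0.05). This fit took 1 spread per region for all 3 lines, although the spread was larger in HCC2935. Its p-values may therefore be too small, above all those near the threshold. Of the 2635 distal falls 26.8% differed from PC9 and 26% from H1975, most of them more negative in HCC2935 (647 of 705 and 662 of 686), but these regions were chosen for their fall in HCC2935. The region near ZNF543 was called lower in all 3 lines, with a log2 fold change of -3.8 ± 0.248 in PC9 and -1.05 ± 0.111 in H1975 (SE). That near STEEP1 was called lower in PC9 (-2.03 ± 0.253) and H1975 (-1.45 ± 0.54). The ATP1B1 promoter changed by 0.99 ± 0.167 in H1975 (adjusted p 1.16e-06, edgeR) and by 0.79 ± 0.306 in PC9 (adjusted p 0.0569, edgeR). The HCC2935 change exceeded these without passing the test (adjusted p 0.0618 and 0.0695, edgeR interaction). The EGFR promoter, called higher in HCC2935, changed by 0.03 in PC9 (adjusted p 0.852) and 0.2 in H1975 (adjusted p 0.171, both edgeR). The HCC2935 change exceeded that in PC9 by 0.44 (adjusted p 0.0481) and that in H1975 by 0.27 without passing the test (adjusted p 0.357, both edgeR interaction). CCND1 fell in PC9 (-1.49, adjusted p 8.63e-10, edgeR), and HCC2935 minus PC9 was 1.05 (adjusted p 0.00123, edgeR interaction).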

How the data were processed

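ATAC-seq libraries of HCC2935 were analysed, with PC9, H1975 and HCC827 for comparison. The authors deposited raw counts per region, for 361905 regions in HCC2935, an annotated subset of 65264 regions, and a peak list per library with q values as −log10. Per the labels' processing notes the build was hg38 and the tools BWA 0.7.17, SAMtools 1.9, deepTools 3.4, MACS2 2.2.6, featureCounts 2.0.0 and ChIPseeker 1.29.1. Titles and design give ATAC-seq while the extraction protocol describes H3K27ac immunoprecipitation, and values were read as ATAC-seq. Total counts per library were 6032567 to 6996320 in DTP, 5770046 to 8066287 in combo and 3968690 to 5490121 in control. Totals cover the table's regions only.

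The fit took all 9 HCC2935 libraries (edgeR 4.0.16, R 4.3.3), with TMM factors, filterByExpr and group means. The test was edgeR's quasi-likelihood F test, with Benjamini-Hochberg adjustment over 154179 regions. The biological coefficient of variation was 10.15%. Counts were simulated for the combo and DTP comparison with the same spread for every region. Of 142333 regions tested 200 were changed. Of these, 37 of 50 changed by 2-fold and 5 of 50 changed by 1.5-fold were recovered, with 3 false calls. Differences between lines were tested by the interaction in 1 fit over PC9, H1975 and HCC2935, and shares by exact two-sided permutation tests (scipy 1.17.1). The sets of regions, gene lists and tests were chosen with earlier results of these data known.

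Named regions were called, had no overlap of DTP and combo libraries, had a mean above the median, lay on chromosomes 1 to 22 or X and had 1 region a symbol. The 6 largest promoter rises and falls within 1 kb, the 4 largest distal rises, the 6 largest distal falls, the 5 symbols with the most distal falls (ties kept) and the 5 widest gaps between a promoter rise and the median of distal regions were named, with at most 4 called examples a list. List genes were read at the promoter region with the highest mean count. The values of 1 list member are not reported here. Same-numbered DTP and combo libraries deviated together weakly from their group means (correlations 0.151, 0.183 and 0.293). Same-numbered pairs with a control library did not (-0.176 to 0.0313). Differently numbered DTP and combo libraries ran from -0.235 to 0.0831. Some differently numbered pairs with a control reached similar values, such as 0.186 (control 2 with combo 3) and 0.164 (control 2 with DTP 3). The numbers were taken to pair DTP with combo from the data, and this pairing is uncertain. A fit with only these groups and the replicate block was added after seeing the data.

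The alternatives were DESeq2 size factors, total counts, loess offsets, DESeq2 1.42.0, limma voom (limma 3.58.1), no filter, a mean of 50 counts, annotated regions only, DTP and combo only, the replicate block, removal of medians in 10 Mb bins, a test against 1 on the log2 fold scale, and each library left out.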

Additional observations from a re-analysis of the deposited data

Results flagged for a closer look

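Regions named in the text were flagged where the change in HCC2935 differed from that in PC9 or H1975 by the test of the difference (edgeR interaction, adjusted p under 0.05 over all matched regions). Among the 22 regions of the plot of named regions there were 2, both against H1975. At the MAST4 intron the log2 change in HCC2935 exceeded that in H1975 by 2.75 (adjusted p 0.0036, edgeR), where H1975 itself changed by 0.19. PC9 was called higher there (1.76, adjusted p 0.00507, edgeR). At the region near ZNF543 the fall in HCC2935 was deeper than in H1975, with a difference of -1.89 (adjusted p 2.48e-05, edgeR), while the difference from PC9 was 0.86 (adjusted p 0.366, edgeR).

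Of the other promoters named, those that differed from PC9 were BRAF (HCC2935 minus PC9 0.87), EGFR (0.44), CCND1 (1.05), TEAD4 (-0.56), BCL2L1 (-0.46), CXCL2 (1.09) and CXCL3 (1.4). Those that differed from H1975 were EHD3 (HCC2935 minus H1975 1.1), BCL2L1 (-0.74) and CDK6 (0.52). At distal regions the difference from PC9 was -1.48 at BCL2L1, -2.56 near IL1B, -1.23 near LARP7, 0.89 near EGFR, 3.09 near AFF4 and 1.4 near BMF. It was 5.31 at a BRAF intron region that was not called in HCC2935 (adjusted p 0.0394, edgeR interaction). That region had only 1.34 to 3.42 CPM in HCC2935 DTP and combo libraries, and its PC9 change of -4.55 ± 1.7 (SE) was imprecise. The PC9 change at the AFF4 region was -4.52 ± 0.826 (SE). The difference from H1975 was -2.01 near IL1B, -1.65 near SPRY1, -1.24 at BCL2L11 and -0.58 at GRHL1. Most of these regions had been named for their change in HCC2935.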

How the results depend on the processing

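No direction among the promoter and distal medians, the promoter shares or the 22 named regions reversed under any alternative run, but the numbers called moved widely. Against 12808 regions called, DESeq2 called 4677, no filter 7789, a mean of 50 counts 3994 of 25775 tested, and a log2 fold change of at least 1 called 203. Promoter regions called higher (1366) numbered 349 with DESeq2, 430 with no filter, 649 at a mean of 50 counts, 0 at the fold limit and 2428 with DTP and combo only. At the fold limit the 0 promoter calls stand beside 3713 regions of all classes with an unadjusted p under 0.05. Promoter regions called lower (1479) numbered 773, 826, 833 and 40 in the first 4 of these. Distal regions called higher (777) numbered 191, 350, 244, 4 and 1325, and called lower (4778) 2580, 2916, 2020 and 125. In the pairing fit added after seeing the data, with DTP and combo only and the replicate block, 24887 regions were called: 4832 promoter regions higher, 2309 promoter regions lower and 2609 distal regions higher. With the replicate block over all 9 libraries 13840 were called, and of 79 results 78 stayed on the same side or within 1.5 times their value, the exception being mesenchymal promoters called higher, 2 in place of 1. The same block brought the CCND1 promoter past the threshold (adjusted p 0.0351, edgeR), and of 100 regions checked the pairing fit changed the call of 3, at CCND1, MYC and 1 BRAF intron region.

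Leaving out 1 library gave 6667 (without DTP 2) to 14836 (without control 3) called regions, with 7514 without DTP 1 and 7582 without combo 2. Promoter regions called higher ran from 565 (without combo 2) to 2218 (without control 3), with 599, 715 and 893 without DTP 1, 2 and 3. Promoter regions called lower ran from 787 (without DTP 2) to 1484, with 873 without DTP 1 and 931, 965 and 933 without combo 1, 2 and 3. Distal regions called higher ran from 299 (without combo 2) to 1206 (without control 3), with 397 and 438 without DTP 2 and 3. Distal regions called lower ran from 2676 (without DTP 2) to 4846, with 2983 without DTP 1 and 3043 and 3163 without combo 1 and 3. The peak share difference was 5.05 points when 50% of a region had to be covered, against 1.7. Without 1 library the difference in promoter share ran from 2.7 to 4.04 points for counts and from 1.21 to 2.2 points for peaks. The interaction counts ran from 5381 to 7070 for PC9 and from 3626 to 5007 for H1975. With a variance for each line (limma voom) they were 5907 and 4070. In promoter regions the balance of higher and lower calls depended on the fit, with 48% higher in the fit reported, 31.1% with DESeq2, 67.7% with the pairing and 0% of 40 calls at the fold limit. Most causes were not tested. In simulated counts at these libraries' depth and common spread, with only 200 regions changed, 5 of 50 changes of 1.5-fold were recovered. Far more regions were called in the real counts, so this share need not hold there.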
